A study of Mus musculus with 4 samples.

Results

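The retained regions are places in the macrophage genome that carried a called peak of histone H4 acetylation before stimulation in both genotypes, kept a call after lipopolysaccharide (LPS) in macrophages without HDAC3, and had none after LPS in macrophages with HDAC3. They number 2647 of 62481 regions (4.24%), obtained by merging overlapping or touching peaks of 4 peak lists. They were chosen by the presence of a peak in untreated wt, untreated HDAC3 KO and LPS-treated HDAC3 KO and its absence in LPS-treated wt. These calls are therefore the rule and not a finding, and scores in the same lists are given as a description.

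Acetylation of lysines on the histone H4 tail weakens the contact between nucleosomes and DNA, is bound by bromodomain proteins, and marks active promoters and enhancers. HDAC3 is a class I histone deacetylase, the catalytic subunit of the NCoR and SMRT corepressor complexes, which transcription factors bring to chromatin. LPS, from the outer membrane of Gram-negative bacteria, acts through Toll-like receptor signalling, which turns on inflammatory genes in macrophages and turns down many genes of the resting cell.

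Acetylated H4 was mapped by chromatin immunoprecipitation and sequencing in primary bone marrow-derived macrophages of C57BL/6 mice on day 7 of differentiation. The groups were LPS-treated HDAC3 KO (HDAC3 -/-), untreated HDAC3 KO, LPS-treated wt (HDAC3 +/-) and untreated wt, with LPS at 100 ng/ml for 4 h. The wt cells carry 1 HDAC3 allele, so every comparison of genotypes is with heterozygous cells. The labels do not say how the allele was deleted, how many animals gave cells or whether libraries shared a preparation. Each group had 1 library, so no difference between groups can be set against a spread between replicates and none was tested. The lists held 45589 peaks covering 50.4 Mb in LPS-treated HDAC3 KO, 41956 covering 36.4 Mb in untreated HDAC3 KO, 39550 covering 37.4 Mb in LPS-treated wt, and 48706 covering 35.4 Mb in untreated wt. Read depth is unknown. LPS-treated HDAC3 KO, the library in which retained regions are called, thus has the longest coverage, and LPS-treated wt, in which they are not, has the fewest peaks. Positions are on mm9. No gene annotation of that build was used here, so the regions carry no gene names, and neither the Hdac3 locus nor macrophage marker genes were checked.

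The question behind these regions is whether acetylation that is no longer called after LPS in wt needs HDAC3 for its loss. A peak was called in both untreated libraries in 24496 regions. Of these, 4022 had no peak in LPS-treated HDAC3 KO (16.4%) and 5683 had none in LPS-treated wt (23.2%). The retained regions are 2647 of the 5683, or 46.6% (exact 95% interval 45.3 to 47.9%), and the other 3036 were without a peak in both LPS-treated libraries. With the genotypes exchanged, 986 of the 4022 regions without a peak in LPS-treated HDAC3 KO kept one in LPS-treated wt (24.5%, 23.2 to 25.9%). Intervals cover counting error only, and neighbouring regions are not independent.

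The order of these 2 shares depends on how many peaks the LPS-treated HDAC3 KO list is allowed. When that list was cut to its 39550 highest-scored peaks, the number in LPS-treated wt, the retained share was 38.7% and the exchanged share 27.7%. When it was cut to its 24313 highest-scored peaks, which cover no more than the LPS-treated wt list, the order turned, with a retained share of 15.0% and an exchanged share of 42.9%, and 872 retained regions were left. Both cuts were chosen after seeing the data. They remove peaks of LPS-treated HDAC3 KO alone, so they lower the retained share and raise the exchanged share by construction. The lowest LPS-treated HDAC3 KO score left was 61.59 with the cut by peak number and 131.64 with the cut by covered length. LPS-treated wt peaks were kept down to a score of 50.0 in both. Differences in depth, immunoprecipitation and genotype between these 2 libraries cannot be told apart.

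Over all 62481 regions, a peak was lost with LPS in HDAC3 KO in 15.2% and in wt in 22.7%, and a peak in LPS-treated HDAC3 KO but not in LPS-treated wt was found in 23.4%. The retained regions are 18.7% of the 14186 regions lost in wt. Another 1166 regions lost in wt (8.22%) were called in HDAC3 KO with LPS but not before it. Of the 14619 regions called in LPS-treated HDAC3 KO and not in LPS-treated wt, the retained regions are 18.1%, so most of that genotype difference lies elsewhere.

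The share of regions without a call after LPS was larger among regions that were weak before it. No list goes below a score of 50.0, so weak regions lie near the limit of calling. With 1 library per group, an effect of LPS on this share cannot be told apart from that limit. The 24496 regions were put into 10 bins of nearly equal size by their starting strength, the lower of their 2 untreated score percentiles, where a percentile is the rank of the authors' score within its own list. In the weakest bin, 46.4% had no peak in LPS-treated HDAC3 KO and 56.0% had none in LPS-treated wt. In the fifth bin these shares were 13.7% for HDAC3 KO and 22.0% for wt, and in the strongest bin 0.204% for HDAC3 KO and 1.02% for wt. With all deposited peaks, the share without a peak was lower in HDAC3 KO in each of the 10 bins.

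**Figure D1:**
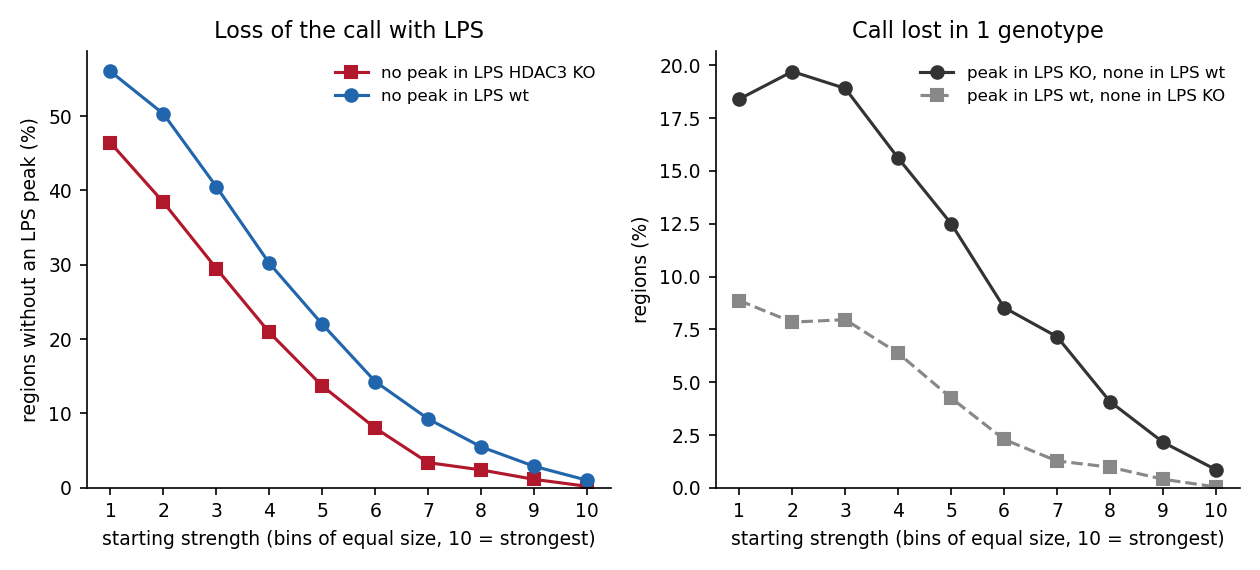
Left, share of regions with a peak in both untreated libraries that had no peak after LPS in HDAC3 KO (squares) and wt (circles), against starting strength in 10 bins (horizontal axis). Right, share with a peak left in LPS-treated HDAC3 KO alone (circles, the retained regions) or LPS-treated wt alone (squares); retained regions were 18.4% of the weakest and 0.857% of the strongest bin.

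Retained regions made up 18.4% of the weakest bin, 19.7% of the next, 12.5% of the fifth and 0.857% of the strongest. Among the strongest 4 bins, 349 of 9798 regions were retained in HDAC3 KO alone and 66 kept a peak in wt alone. With the LPS-treated HDAC3 KO list cut to the peak number of LPS-treated wt, 311 were retained in HDAC3 KO alone and 105 in wt alone, and with the cut to its covered length 173 in HDAC3 KO alone and 433 in wt alone. The larger number of strong regions in the retained pattern was thus seen at equal peak number and not at equal covered length. At equal covered length the lowest score was 131.64 in LPS-treated HDAC3 KO and 50.0 in LPS-treated wt, so calls were made at unlike limits.

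The retained regions ranked in the middle of the untreated lists and lower in the LPS-treated HDAC3 KO list. In LPS-treated HDAC3 KO their scores ran from 50.0 to 1807 with a median of 98.0, which is a median percentile of 35.8. In untreated HDAC3 KO they ran from 50.0 to 1849 with a median of 124 (percentile 50.7), and in untreated wt from 50.0 to 1495 with a median of 112 (percentile 48.3). Scores are the authors' own value for each peak, depend on depth and input, and are printed for each list as they stand. Differences between lists are given as percentiles or covered length.

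**Figure D2:**
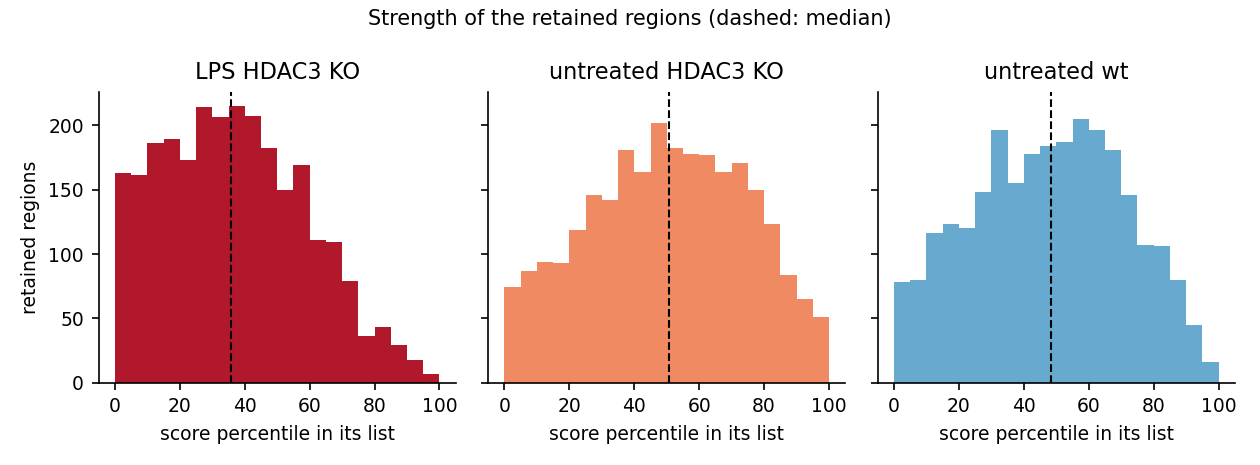
Number of retained regions (vertical axis) by score percentile within the list (horizontal axis, steps of 5) in the 3 libraries that hold a peak. The dashed median lies at 35.8 in LPS-treated HDAC3 KO, at 50.7 in untreated HDAC3 KO and at 48.3 in untreated wt.

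Few retained regions were strong peaks in every library. All 3 scores were at least 200 in 101 regions (3.82%) and at least 500 in 3 (0.113%). All 3 percentiles lay above the list median in 321 regions (12.1%), and at or below it in 717 (27.1%). In LPS-treated HDAC3 KO, 381 regions (14.4%) scored under 60, close to the lowest value of 50.0 in the list, and 1351 (51.0%) under 100. The share of each list's regions that were retained regions was larger in the middle of the untreated lists than at their ends. It was 11.7% in the sixth decile of untreated HDAC3 KO against 2.89% in the top decile, and 11.3% in the sixth decile of untreated wt against 1.33% in the top decile. In LPS-treated HDAC3 KO it was 11.1% in the fourth decile and 0.578% in the top decile.

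Within HDAC3 KO, most retained regions stood lower in the LPS-treated than in the untreated list. The percentile was higher with LPS in 838 regions (31.7%) and lower in 1809 (68.3%), with a median difference of -13.1 points. It was at least 20 points higher in 307 and at least 20 points lower in 1069. The same difference had a median of -0.448 points over the 17827 regions with a peak in all 4 lists. The 986 regions of the exchanged pattern had a median difference of -24.6 points between LPS-treated and untreated wt.

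Covered length was compared as well. The retained regions had a median covered length of 795 bp in LPS-treated HDAC3 KO, 827 bp in untreated HDAC3 KO and 688 bp in wt without LPS. Summed over the regions it was 2560 kb in LPS-treated HDAC3 KO, 2632 kb in untreated HDAC3 KO and 2157 kb in wt without LPS. The covered length was larger in LPS-treated than in untreated HDAC3 KO in 48.4% of the retained regions, against 68.1% of the regions with a peak in all 4 lists. Before stimulation it was larger in HDAC3 KO than in wt in 64.0% of the retained regions and in 57.7% of the regions in all 4 lists. The untreated percentile was higher in HDAC3 KO in 52.9% of the retained regions and 41.5% of those in all 4 lists. In the exchanged pattern the untreated covered length was larger in HDAC3 KO in 44.6% and the untreated percentile higher in 30.3%. The genotypes thus differed in these patterns before LPS as well.

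**Figure D3:**
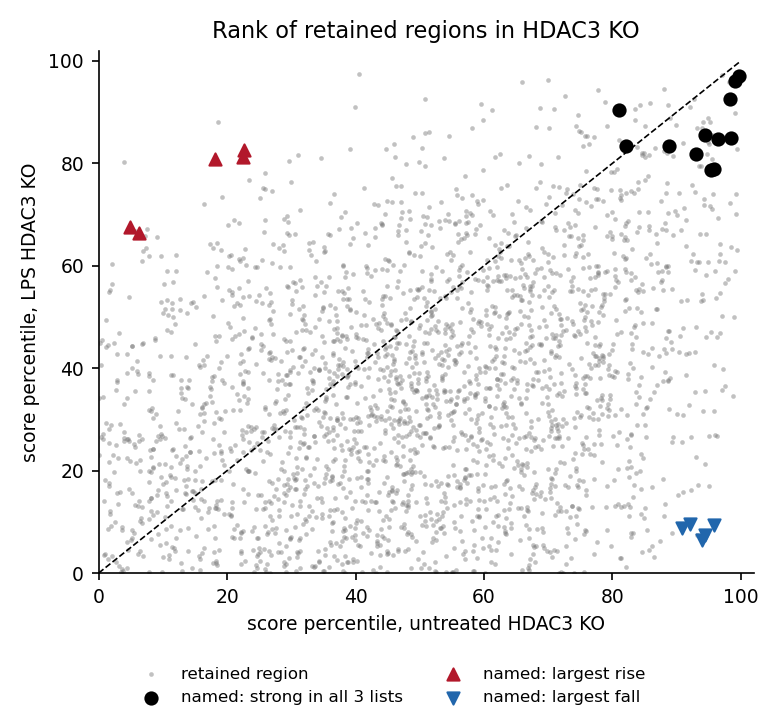
Score percentile in LPS-treated HDAC3 KO (vertical axis) against that in untreated HDAC3 KO (horizontal axis) for the 2647 retained regions (grey points), with the named regions marked. Points below the dashed line of equal rank number 1809, and points above it 838.

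Across the retained regions, the percentiles in untreated HDAC3 KO and untreated wt had a Spearman rho of 0.42, those in LPS-treated and untreated HDAC3 KO 0.28, and those in LPS-treated HDAC3 KO and untreated wt 0.10 (n = 2647 regions). The regions in all 4 lists had 0.73 for the first of these pairs and 0.58 for the second (n = 17827). Points share their libraries, so the values are a description.

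Merged regions join peaks of different lists, which need not cover the same bases. In 2542 of the 2647 retained regions (96.0%) at least 1 base was covered in all 3 libraries. A peak of LPS-treated HDAC3 KO overlapped one of untreated HDAC3 KO in 2623 regions and one of untreated wt in 2615. Most regions held a single peak in each library: 2347 in LPS-treated HDAC3 KO, 2139 in untreated HDAC3 KO and 2062 in wt without LPS. Region widths ran from 271 to 8521 bp with a median of 1131 bp, against 745 bp for regions lost in both genotypes and 1761 bp for regions in all 4 lists.

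The nearest LPS-treated wt peak lay a median of 6096 bp away. It was within 1 kb in 578 retained regions (21.8%), between 1 and 5 kb in 646 (24.4%) and farther than 5 kb in 1423 (53.8%). Regions lost in both genotypes had a median distance of 7781 bp, and 18.3% of them lay within 1 kb. The 1423 distant regions had higher median scores than the near ones in the untreated lists, but not in LPS-treated HDAC3 KO. Their median score was 96.0 in LPS-treated HDAC3 KO, 130 in untreated HDAC3 KO and 123 in wt without LPS, whereas within 1 kb it was 101 in LPS-treated HDAC3 KO, 109 in untreated HDAC3 KO and 97.3 in wt without LPS. At the limit of the rule, the retained region closest to an LPS-treated wt peak, at chromosome 12, 4914550 to 4915291, was 1 bp away from it. It scored 89.0 in LPS-treated HDAC3 KO, 126 in untreated HDAC3 KO and 289 in wt without LPS. Just outside the rule, a region at chromosome 19, 37628041 to 37629189, had an LPS-treated wt peak scored 50.3 that overlapped the others by 3 bp. In all, 603 of the 17827 regions in all 4 lists had no LPS-treated wt score of 60 or more.

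The strongest retained regions with no LPS-treated wt peak within 5 kb were named by their lowest percentile over the 3 lists. The first lay at chromosome 18, 60905274 to 60913794, and is also the widest of all retained regions. It scored 1399 in LPS-treated HDAC3 KO, 1296 in untreated HDAC3 KO and 673 in wt without LPS, all above the 95th percentile of their lists. Its nearest LPS-treated wt peak was 20.0 kb away.

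The region at chromosome 3, 88315278 to 88319230, scored 985 in LPS-treated HDAC3 KO, 1046 in untreated HDAC3 KO and 354 in wt without LPS. A further region lay at chromosome 15, 58576584 to 58580442, and scored 594 in LPS-treated HDAC3 KO, 1083 in untreated HDAC3 KO and 936 in wt without LPS. Another on chromosome 15, at 58910878 to 58914273, scored 589.7 in LPS-treated HDAC3 KO, 810.0 in untreated HDAC3 KO and 419 in wt without LPS. In these 4 regions the peak of LPS-treated HDAC3 KO covered 3280 to 7639 bp, and the nearest LPS-treated wt peak was 9.13 to 27.0 kb away.

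**Figure D4:**
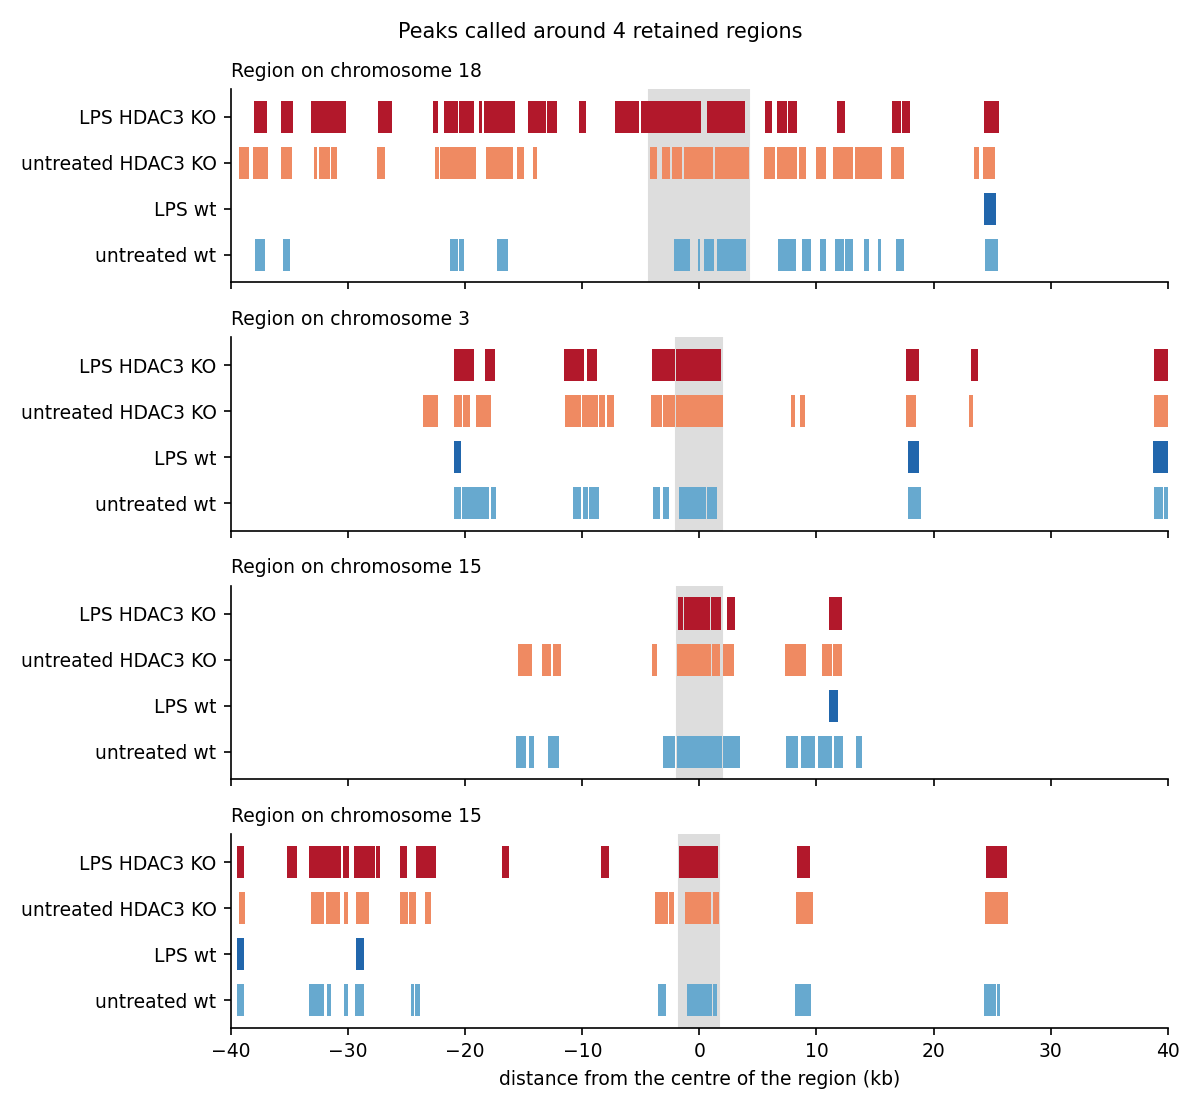
Peaks called in each library (coloured bars, 1 row per library) within 40 kb of the centre of the 4 strongest named regions (horizontal axis, distance in kb; grey, the merged region). LPS-treated wt has no peak in the grey regions, and its nearest peak lies 9.13 to 27.0 kb from their edges.

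The other 8 of these 12 regions lay on chromosomes 4, 5, 6, 8, 9, 13 and 16. At chromosome 8, 124314944 to 124317770, scores were 1649 in LPS-treated HDAC3 KO, 1849 in untreated HDAC3 KO and 291 in wt without LPS, the widest gap in percentile between the untreated genotypes among the 12 (99.7 in HDAC3 KO, 80.0 in wt). At chromosome 6, 137505588 to 137509642, scores were 548 in LPS-treated HDAC3 KO, 343 in untreated HDAC3 KO and 454 in wt without LPS, and the nearest LPS-treated wt peak was 87.7 kb away. At chromosome 9, 40326539 to 40330505, scores were 827 in LPS-treated HDAC3 KO, 328 in untreated HDAC3 KO and 311 in wt without LPS. These last 2 were the only ones of the 12 to stand at a higher percentile in LPS-treated than in untreated HDAC3 KO.

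The remaining 5 named strong regions had lower percentiles with LPS in HDAC3 KO. At chromosome 13, 52058315 to 52060653, the score was 439.7 in LPS-treated HDAC3 KO, 760.3 in untreated HDAC3 KO and 739 in wt without LPS. At chromosome 16, 4838478 to 4841266, it was 432 in LPS-treated HDAC3 KO, 714 in untreated HDAC3 KO and 346 in wt without LPS. The regions at chromosome 5, 149519837 to 149522055, chromosome 4, 144609380 to 144611169, and chromosome 9, 120599795 to 120601727, scored 549.6, 618 and 503 in LPS-treated HDAC3 KO. They scored 468, 664 and 596 in untreated HDAC3 KO, against 506, 315 and 477 in wt without LPS. The untreated percentile was higher in HDAC3 KO than in wt in 8 of the 12.

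Among regions over 5 kb from an LPS-treated wt peak, the rank in LPS-treated HDAC3 KO was above that in untreated HDAC3 KO in some and below it in others. The regions named for this were picked by the size of that difference between 2 single libraries, which is a description. The largest rise was at chromosome 9, 89937369 to 89938296, scored 269.6 in LPS-treated HDAC3 KO, 53.3 in untreated HDAC3 KO and 50.6 in wt without LPS, a rise of 62.8 percentile points. At chromosome 4, 130122231 to 130125480, scores were 481 in LPS-treated HDAC3 KO, 64.0 in untreated HDAC3 KO and 79.0 in wt without LPS, and the covered length was 3250 bp in LPS-treated HDAC3 KO against 325 bp in untreated HDAC3 KO. The regions at chromosome 3, 98186074 to 98187394 and 121332288 to 121334342, and at chromosome 12, 25277519 to 25278956, rose by 60.3, 59.9 and 58.8 points. These 5 had small untreated peaks in both genotypes, of 249 to 524 bp, so the retained call there stands for a peak that was larger with LPS in HDAC3 KO.

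The largest fall was at chromosome 15, 58045536 to 58047511, with a score of 55.0 in LPS-treated HDAC3 KO, 645 in untreated HDAC3 KO and 184 in wt without LPS. The region at chromosome 6, 99337428 to 99340262, scored 57.6 in LPS-treated HDAC3 KO, 763 in untreated HDAC3 KO and 853 in wt without LPS, and its peak covered 618 bp in LPS-treated HDAC3 KO against 2551 bp in untreated HDAC3 KO. The regions at chromosome 9, 121544489 to 121546150, chromosome 16, 12032836 to 12034412, and chromosome 18, 68318927 to 68320933, scored 55.8, 57.8 and 57.0 in LPS-treated HDAC3 KO, against 667, 564 and 523 in untreated HDAC3 KO, and their percentiles fell by 86.9, 82.6 and 82.0 points. All 5 scored near the lowest value of the LPS-treated HDAC3 KO list, and peaks covered 541 to 1152 bp there, against 1550 to 2551 bp in untreated HDAC3 KO. Of the 1423 distant regions, 157 were at least 20 points higher and 583 at least 20 points lower in LPS-treated than in untreated HDAC3 KO.

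Acetylation calls in the flanks of the retained regions differed between the LPS-treated libraries, and the rule used part of these calls. In the 20 kb on each side, peaks covered a mean of 4214 bp in LPS-treated HDAC3 KO, 3819 bp in untreated HDAC3 KO, 2237 bp in LPS-treated wt and 3080 bp in untreated wt. The LPS-treated over untreated ratio was 1.10 in HDAC3 KO and 0.726 in wt, where the whole lists had 1.38 in HDAC3 KO and 1.06 in wt. Around regions lost in both genotypes both ratios were lower still, at 0.823 in HDAC3 KO and 0.632 in wt, so lower coverage in LPS-treated than in untreated wt was not particular to the retained regions. Around the exchanged pattern the LPS-treated over untreated ratio was 1.01 in HDAC3 KO and 0.855 in wt. The ratio of LPS-treated HDAC3 KO to LPS-treated wt was 1.88 around retained regions and 1.18 around the exchanged pattern. It was 1.41 around regions in all 4 lists, 1.46 around regions lost in both genotypes and 1.35 over the whole lists. These flanks contain other retained regions: 835 of the 2647 (31.5%) had another within 20 kb, so the flanks are not fully independent of the rule.

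Retained regions lay near regions lost in both genotypes more than near regions gained in both. Of the retained regions, 27.1% had 1 of the 3036 regions lost in both genotypes within 20 kb and 9.86% had 1 of the 4101 gained in both. Of the 986 regions of the exchanged pattern, 26.0% had one lost in both and 11.1% one gained in both. The order of these shares was thus not particular to the retained regions. Of the regions in all 4 lists, 15.6% had one lost in both and 17.6% one gained in both. Of the 2156 regions that lacked a peak in untreated HDAC3 KO alone, 8.49% had one lost in both and 35.1% one gained in both. A region in all 4 lists lay within 20 kb of 67.2% of the retained regions. The share was similar for other patterns, at 63.9% for the exchanged pattern and 60.6% for regions lost in both genotypes. Of the regions in all 4 lists, 66.4% had another that close.

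The retained regions fell into 2157 windows of 50 kb, of which 1786 held 1 and 25 held at least 4. Those alone in their window were 67.5% of the retained regions. Another retained region lay within 20 kb of 31.5% of the retained regions. A retained region lay that close to 24.7% of regions lost in both genotypes, 16.2% of regions in all 4 lists and 14.0% of the exchanged pattern. A neighbour of their own pattern lay that close to 36.4% of regions lost in both genotypes and 66.4% of regions in all 4 lists. The same share was 26.7% for regions lacking a peak in untreated HDAC3 KO alone and 9.94% for the exchanged pattern. The patterns differ in their number of regions, which also affects these shares. Those 25 windows, examined after their values were seen, held 114 retained regions (4.31%). Median covered length in them was 11.9 kb in LPS-treated HDAC3 KO, 10.9 kb in untreated HDAC3 KO, 1.56 kb in LPS-treated wt and 8.10 kb in untreated wt. LPS-treated wt had the shortest coverage in each of the 25, which follows in part from how the windows were chosen, and no peak at all in 5 of them. LPS-treated HDAC3 KO exceeded untreated HDAC3 KO in 12 of the 25, so within HDAC3 KO coverage moved in either direction.

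**Figure D5:**
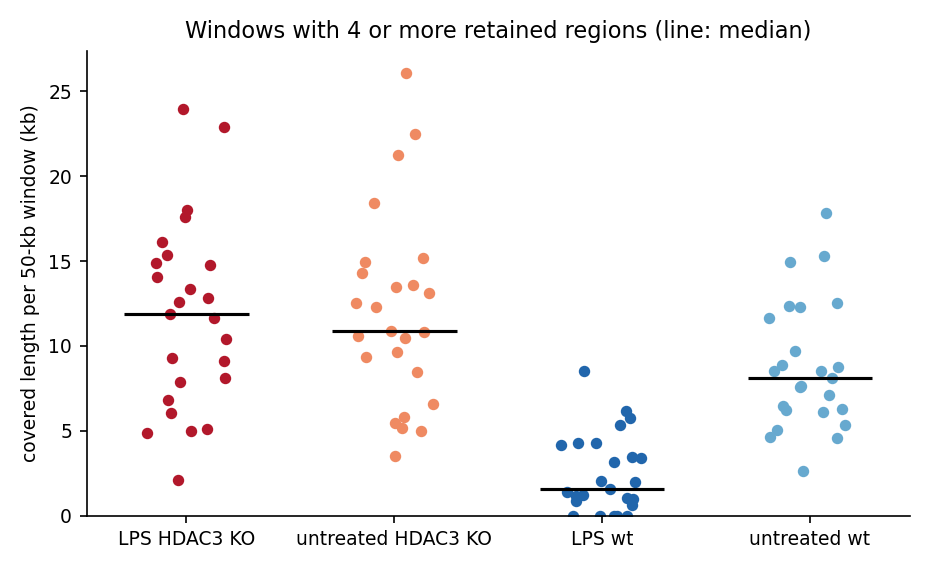
Covered length per 50-kb window (vertical axis, kb) in each library for the 25 windows with at least 4 retained regions; each point is 1 window and the line is the median. LPS-treated wt has a median of 1.56 kb, against 8.10 kb in untreated wt.

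The densest stretch was at chromosome 18, 60850001 to 60950000, where 2 adjoining windows held 10 retained regions among 27 merged regions and include the strongest named region. Peaks covered 34.1 kb of these 100 kb in LPS-treated HDAC3 KO, 32.0 kb in untreated HDAC3 KO, 1.07 kb in LPS-treated wt and 16.3 kb in untreated wt. A single peak was called there in LPS-treated wt, against 27 in LPS-treated HDAC3 KO. At chromosome 8, 73050001 to 73100000, 6 retained regions lay beside 6 regions called in all 4 libraries, and peaks covered 22.9 kb in LPS-treated HDAC3 KO, 21.2 kb in untreated HDAC3 KO, 6.19 kb in LPS-treated wt and 15.3 kb in untreated wt. At chromosome 10, 87300001 to 87350000, no peak was called in LPS-treated wt, against 9.10 kb in LPS-treated HDAC3 KO, 9.37 kb in untreated HDAC3 KO and 4.57 kb in wt without LPS.

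Retained regions were spread over all 20 chromosomes that had at least 100 merged regions. Their share of merged regions ran from 3.32% on chromosome 16 to 5.02% on chromosome 8, with exact intervals of 2.63 to 4.12% and 4.28 to 5.85%. Their share of the regions with both untreated peaks and no LPS-treated wt peak ran from 39.6 to 52.8% and, with all deposited peaks, exceeded the value for the exchanged genotypes, 18.1 to 30.5%, on each of the 20 chromosomes. Chromosomes share the libraries, so they are not replicates.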

How the data were processed

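Per the file headers, the deposited lists are MACS peaks of 1 ChIP library each against input. Bowtie and mm9 are named in the submitters' processing notes. Versions, settings and the input library used are not given in the sources used here. Each peak has the authors' deposited score, whose scale is not stated, and no list goes below 50.0. Files hold no reads, so depth and the precision it gives are unknown.

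Peaks of the 4 lists were merged with bedtools 2.31.1 (gap 0), and a region was called in a library with at least 1 peak in it. A region's score in a list is its highest, and percentiles are ranks within the list. Intervals are exact (Clopper-Pearson, 95%, scipy 1.17.1). Distances count from region edges. Named were the 12 regions with the highest lowest percentile and the 5 with the largest rise and fall in HDAC3 KO, among those over 5000 bp from an LPS-treated wt peak. Counting was checked on 20000 simulated regions, with 10 of 10 counts recovered. Tables were handled with pandas 2.3.3 and numpy 2.4.6 in Python 3.11.15, and figures drawn with matplotlib 3.10.9.

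The members, rules and alternatives were chosen with earlier results of these data known. Promoter counts, gene lists, marker genes and motifs were planned for an mm9 genome and annotation. The reference tables used here are on GRCm38, coordinates were not converted, and these were not run. No sequence is shown for the same reason.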

Additional observations from a re-analysis of the deposited data

How the results depend on the processing

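No paired analysis was possible because each group has 1 library, and no library could be left out. The number of retained regions (2647) was 2029 with a merge gap of 500 bp or peaks widened by 250 bp, 2596 on numbered chromosomes and 2206 with the LPS-treated HDAC3 KO list cut to the LPS-treated wt peak number. It was 1557 with peaks at or above the median score, 1033 when each list kept its 20000 top-scored peaks, 321 with strict calls (present at or above the median score, absent only where no peak is listed) and 872 with the cut to LPS-treated wt covered length. Raising the score limit removes weak LPS-treated wt peaks too, so it brings in other regions: 318 of the 2647 were found again at the median score and 189 with 20000 peaks, against 1986 with the 500-bp gap. The retained share of 46.6% and the share of 24.5% with genotypes exchanged were 43.0 and 21.2% at the median score, 37.4 and 29.6% with 20000 peaks, 48.1 and 26.1% with the gap or the widening, 40.7 and 6.22% with strict calls, and 38.7 and 27.7% with the cut by peak number. The order turned only with the cut by covered length (15.0 and 42.9%), which removes calls from LPS-treated HDAC3 KO alone. The cause was not tested. Retained regions clear of LPS-treated wt peaks by 5 kb (1423) numbered 1105, 748, 1414, 1386, 1388, 175, 1189 and 462 under the median score, 20000 peaks, gap, widening, numbered chromosomes, strict calls and the 2 cuts; 2069 were clear by 1 kb and 657 by 20 kb. The median percentile difference in HDAC3 KO, -13.1 points, was below 0 in the 6 settings that apply the same rule to every list. It was -16.2 at the median score, -20.3 with 20000 peaks, -12.8 with gap or widening, -13.0 on numbered chromosomes, and -10.4 with strict calls. Keeping 20000 peaks removes a larger part of the 45589 peaks of LPS-treated HDAC3 KO than of the 41956 of untreated HDAC3 KO. The cuts by peak number and covered length, at -17.8 and -30.4, lower LPS-treated HDAC3 KO percentiles by construction. Promoter counts near gene starts were not run.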
